A study of Mus musculus with 4 samples.

Results

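The genes described here encode the transforming growth factor beta (TGF-beta) superfamily and its signalling chain: ligands of the TGF-beta, bone morphogenetic protein (BMP), growth and differentiation factor (GDF) and activin families, their receptors, and the SMAD proteins. They were chosen by symbol alone, as all features whose name begins with Tgfb, Bmp or Gdf and a digit, Bmpr, Acvr, Inhb, Smad and a digit, or Bambi, together with Inha. This gave 55 of the 21883 features listed in each tissue's table: 28 ligand genes, 13 receptor genes, 8 SMAD genes and 6 genes that match by name without being a ligand, receptor or SMAD. All RNA came from wild-type male mice of the BL6/C57 strain, young adults in which the sciatic and the femoral nerve of the left leg were transected 7 days earlier. Dorsal root ganglia (DRG) of lumbar levels 4 to 6, home to the cell bodies of the axotomised sensory neurons, and lumbar dorsal cord, their central target, were each sampled on the ipsilateral and the contralateral side. The 4 groups hold 1 library each. Contralateral tissue is from the same kind of operated animal and is no uninjured control, and whether animals were pooled was not stated. Levels are in FPKM, a fragment count scaled by transcript length and by library size, so genes can be compared within a library.

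Ligands of this superfamily are secreted as dimers and bind a complex of type II and type I receptors, both of which are serine/threonine kinases. The type II receptor activates the type I receptor, which phosphorylates receptor SMADs: Smad2 and Smad3 for TGF-beta and activin, Smad1, Smad5 and Smad9 for BMPs. These join the common partner Smad4 and enter the nucleus, while Smad6 and Smad7 oppose the signal. TGF-beta1 is a survival and identity factor of microglia, the resident macrophages of the cord, and BMP and SMAD1 signalling has been linked to the growth of sensory axons.

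The tissue labels were checked against marker genes. Of 11 sensory neuron markers, 0 were under 1 FPKM in both DRG libraries, whereas 5 were so in cord, with Avil, Scn10a and Trpv1 at 0 in at least 1 cord library. Of 11 dorsal horn markers, 6 were under 1 FPKM in both DRG libraries, with Lbx1, Pax2 and Slc32a1 at 0 in at least 1, and 1 was so in cord. The others reached 1 FPKM in DRG, where Snap25 was at 961 FPKM contralaterally and 623 ipsilaterally. Tlx3 was higher in DRG, at 6.66 and 4.51 FPKM, than in cord, at 0.886 and 0.412. Summed FPKM over 15 macrophage and microglia markers was 94.0 contralaterally and 244 ipsilaterally in DRG, with 11 markers at least 2-fold higher, and 184 and 872 in cord, with 14 at least 2-fold higher. Summed FPKM over 10 fibroblast markers was 444 and 842 in DRG, with 2 at least 2-fold higher. In cord it was 26.8 and 27.0, with 5 markers under 1 FPKM on both sides and Mfap5 at 0 in both libraries. None of the macrophage markers was at 0 in any library. Over 10 markers of injured sensory neurons the sum was 374 and 2980 FPKM in DRG, with 9 at least 2-fold higher and Vip at 0 in both libraries. In cord the sum was 353 and 502 FPKM, with 4 at least 2-fold higher. The part of these cell types in the differences below was not tested, and in bulk tissue more cells of a type and more RNA per cell cannot be told apart.

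In DRG, 7 of the 55 members were at least 2-fold higher ipsilaterally and 0 were at least 2-fold lower. The measure was the log2 ratio of ipsilateral over contralateral FPKM after adding 1 FPKM to each, called log2 ratio below, and it understates the difference of low genes. Of the 55, 39 reached 1 FPKM in at least 1 library, and 4 of these did so through the ipsilateral library alone, so that count is a description. Among all features measured in this way, 3.04% passed the 2-fold line upward and 0.784% downward. The median log2 ratio was 0.27 over the 39 members and 0.05 over all 13137 measured features. Of the 43 members tested in the authors' deposited table, 8 were called higher and 1 lower at a q-value of up to 0.05, where 4.64% and 1.9% of all tested features were called. The authors' test sets 1 library against 1 library, so it describes these libraries and leaves out variation between animals.

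Cord held fewer such members. There 3 of the 55 members were at least 2-fold higher ipsilaterally and 0 at least 2-fold lower. The 3 were 7.89% of the 38 measured members, and 4.46% of all 13351 measured features were 2-fold higher and 1.64% 2-fold lower. Bambi-ps1, Gdf10 and Tgfb1 reached 1 FPKM through the ipsilateral library alone. Among these, Bambi-ps1 and Tgfb1 are in the count, so it is a description. The 38 measured members had a median log2 ratio of 0.14, and all measured features one of 0.02. The authors' deposited table called 4 of 44 tested members higher and 0 lower, against 4.52% and 1.55% of tested features. Across both tissues 11 members were called in at least 1 tissue and 44 in neither.

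**Figure D1:**
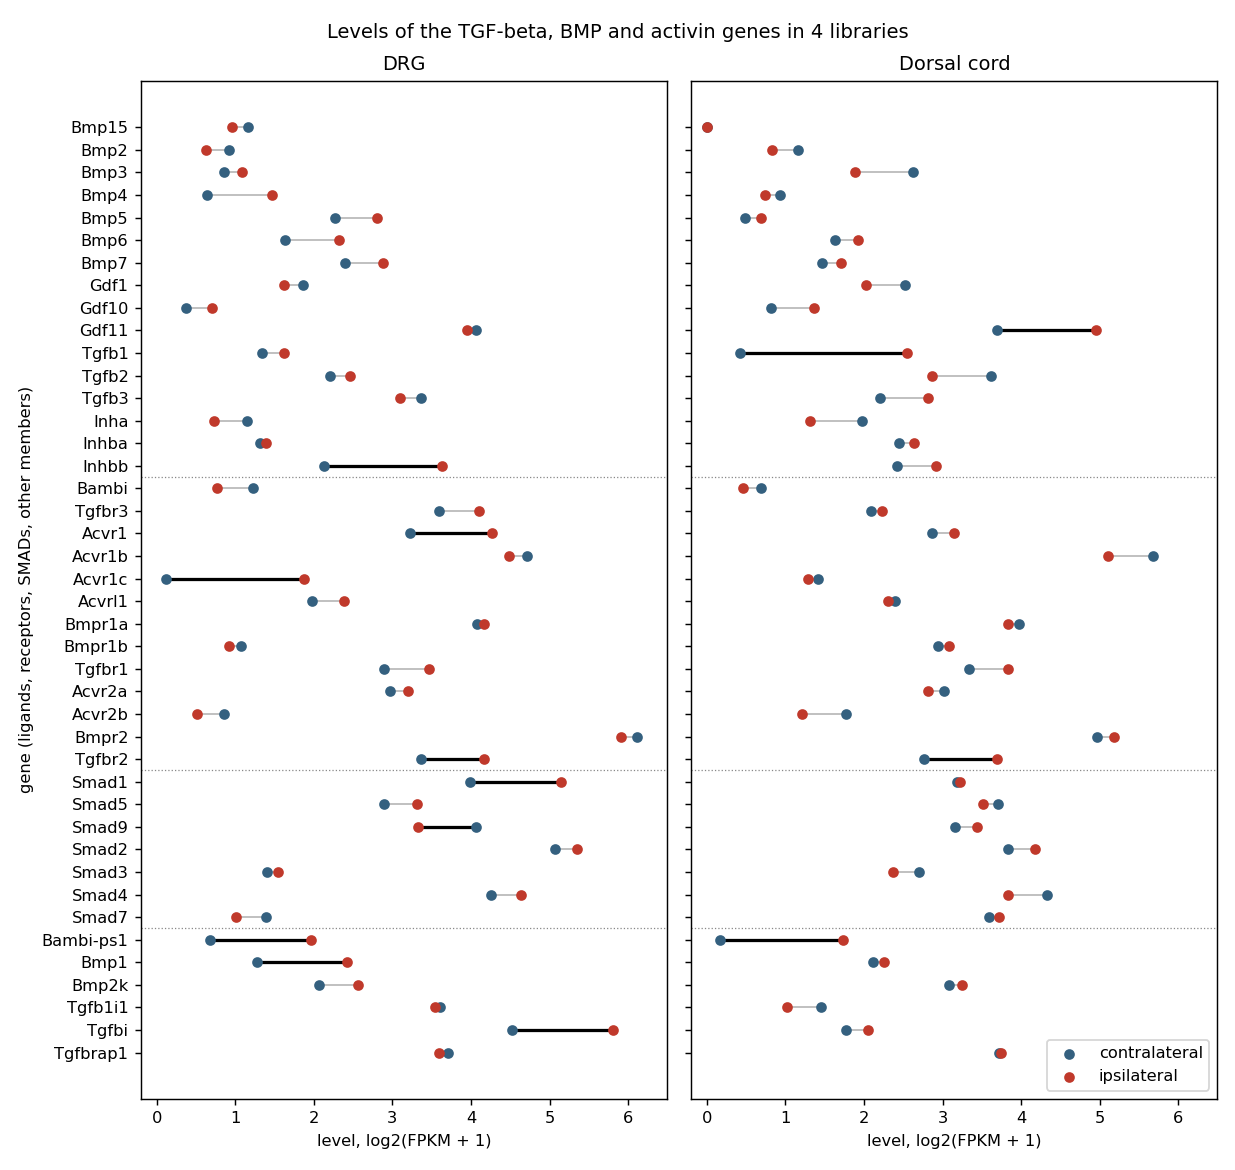
Level of the 42 members that reached 1 FPKM in any library, as log2(FPKM + 1) on the horizontal axis, for DRG (left) and dorsal cord (right). Blue points are the contralateral and red points the ipsilateral library, each point is 1 library, and a thick black line joins the libraries of a member called in the authors' deposited table. Most pairs lie close together, and the longest lines are those of Acvr1c in DRG and Tgfb1 in cord.

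For 6 of the called members the 250 bases before the transcription start are shown, because they carry the main differences below: Acvr1c, Inhbb and Smad1, higher in DRG, Tgfb1 and Gdf11, higher in cord, and Tgfbr2, called higher in both. The sequences are RefSeq's, on build GRCm38.p6 rather than the mm9 build of the expression tables, and run 5′ to 3′ on the gene's strand. Capitals mark GC boxes (GGGCGG or its reverse complement CCGCCC), the TATA box letters TATAAA and a SMAD box (CAGAC), each searched on both strands.
Acvr1c, chr2:58357759-58358008, minus strand, first of 2 listed starts: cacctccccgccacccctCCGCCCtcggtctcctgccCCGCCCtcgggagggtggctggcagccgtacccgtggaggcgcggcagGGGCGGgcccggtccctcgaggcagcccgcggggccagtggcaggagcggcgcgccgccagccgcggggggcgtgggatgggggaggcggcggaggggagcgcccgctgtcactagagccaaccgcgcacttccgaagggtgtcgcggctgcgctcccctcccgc
Inhbb, chr1:119422249-119422498, minus strand: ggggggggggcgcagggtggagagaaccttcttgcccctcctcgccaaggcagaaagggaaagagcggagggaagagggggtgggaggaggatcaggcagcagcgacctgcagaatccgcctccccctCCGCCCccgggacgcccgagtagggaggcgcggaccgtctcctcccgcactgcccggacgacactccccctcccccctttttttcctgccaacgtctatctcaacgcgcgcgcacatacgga
Smad1, chr8:79399429-79399678, minus strand: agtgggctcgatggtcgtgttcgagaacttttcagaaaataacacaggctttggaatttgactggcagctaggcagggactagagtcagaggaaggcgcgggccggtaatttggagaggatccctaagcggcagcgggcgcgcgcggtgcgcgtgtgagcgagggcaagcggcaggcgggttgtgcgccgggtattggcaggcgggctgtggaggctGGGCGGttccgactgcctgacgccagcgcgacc
Tgfb1, chr7:25686752-25687001, plus strand: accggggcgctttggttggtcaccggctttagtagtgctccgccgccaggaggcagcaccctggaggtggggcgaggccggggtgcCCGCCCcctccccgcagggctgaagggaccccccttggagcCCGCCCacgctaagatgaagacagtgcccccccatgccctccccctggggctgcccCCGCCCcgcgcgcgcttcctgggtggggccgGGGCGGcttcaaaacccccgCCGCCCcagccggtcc
Gdf11, chr10:128891719-128891968, minus strand: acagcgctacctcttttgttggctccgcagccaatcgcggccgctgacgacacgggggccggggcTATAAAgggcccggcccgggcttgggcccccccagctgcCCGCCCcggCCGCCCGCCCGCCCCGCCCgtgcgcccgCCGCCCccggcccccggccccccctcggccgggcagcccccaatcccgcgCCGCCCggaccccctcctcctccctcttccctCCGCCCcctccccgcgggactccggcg
Tgfbr2, chr9:116175364-116175613, minus strand: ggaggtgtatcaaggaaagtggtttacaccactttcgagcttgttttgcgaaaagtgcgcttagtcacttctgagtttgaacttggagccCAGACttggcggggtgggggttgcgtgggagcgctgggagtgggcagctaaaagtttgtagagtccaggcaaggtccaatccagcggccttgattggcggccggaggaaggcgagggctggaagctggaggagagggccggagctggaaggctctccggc
These stretches are rich in G and C, from 58.4% in Tgfbr2 to 81.2% in Gdf11. The 38 members with a listed promoter had a median of 64.6% G and C, and all 27025 listed genes a median of 52.0%. GC boxes were found in 26 of the 38 members and in 32.9% of all promoters of this length. Of the other motifs searched on both strands, the AP-1 letters TGANTCA, the cyclic AMP element TGACGTCA and the PU.1 letters GAGGAAGT were in 0 of the 38 members and in 6.87%, 1.62% and 2.44% of all promoters. CAGAC was in 16 members (42.1%) and in 42.1% of all promoters, GGCGCC, a BMP-type SMAD element, in 7 members and 9.54% of all promoters, and TATAAA (or TTTATA) in 6 members and 13.0% of all promoters. The GC box and TATAAA searches were added after the first 5 motifs had been searched. A match is a run of letters and was not tested as a binding site.

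Among the ligands, the 3 TGF-beta genes differed in direction in cord and varied little in DRG. Tgfb1 reached 4.83 FPKM in the ipsilateral cord library, against 0.343 FPKM contralaterally. That is 14.1-fold higher, with a 95% interval of 5.07 to 39.0, and the authors' deposited table called it (q = 7.12e-05). Intervals of folds are 95% intervals built from the test statistic in the authors' deposited table and leave out variation between animals. Its locus spans bases 26472020 to 26490015 of chromosome 7 (mm9). The contralateral library alone was under 1 FPKM, so the size of this fold rests on a low level. Among the 15 macrophage and microglia markers, 14 were at least 2-fold higher in the same cord library. In DRG the gene stood at 2.06 FPKM ipsilaterally and 1.53 contralaterally, an interval of the fold of 0.70 to 2.58.

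Tgfb2, a ligand that neurons and astrocytes also make, was lower in ipsilateral cord, at 6.26 against 11.3 FPKM (interval of the fold 0.37 to 0.84). Its q-value in the authors' deposited table was 0.066, so it was not called. Tgfb3 was at 6.05 against 3.61 FPKM in cord (0.99 to 2.82). Summed over the 3 genes, the level was close between the sides of the cord, at 15.3 FPKM contralaterally and 17.1 FPKM ipsilaterally, while the share of Tgfb1 in that sum was 2.25% and 28.2% and the share of Tgfb2 74.1% and 36.5%. In DRG, Tgfb3 was the most abundant of the 3 on both sides, at 9.31 FPKM contralaterally and 7.57 ipsilaterally (0.55 to 1.21). Tgfb2 was at 3.61 and 4.49 FPKM there (0.81 to 1.91).

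**Figure D2:**
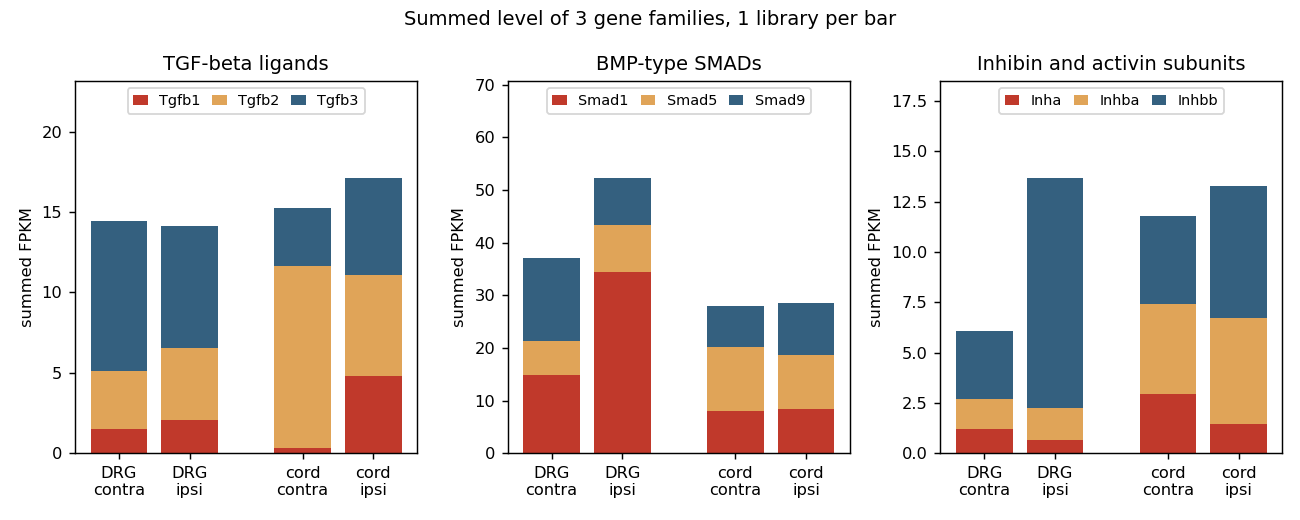
Summed FPKM of 3 gene families, 1 library per bar with no error bar, split by gene in color: TGF-beta ligands (left), BMP-type SMADs (middle) and inhibin and activin subunits (right). In cord the TGF-beta bars differ in make-up more than in height, with Tgfb1 at 2.25% of the contralateral and 28.2% of the ipsilateral sum, and in DRG the ipsilateral bars of the other families are taller through Smad1 and Inhbb.

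The activin subunit gene Inhbb, whose product forms activin B, was higher in ipsilateral DRG. It stood at 11.4 FPKM ipsilaterally and 3.37 contralaterally, 3.39-fold higher (2.22 to 5.17), and was called in the authors' deposited table (q = 1.94e-06). Its locus spans bases 121312041 to 121318825 of chromosome 1 (mm9). In cord it was at 6.54 against 4.37 FPKM (0.94 to 2.39). Inhba, which encodes the subunit of activin A, was at 1.62 against 1.5 FPKM in DRG (0.52 to 2.27) and at 5.24 against 4.47 in cord (0.60 to 2.30). Inha, the inhibin subunit gene, was at 0.658 against 1.21 FPKM in DRG (0.23 to 1.31) and 1.48 against 2.93 in cord (0.20 to 1.25). Inhbb thus made up 55.4% of the summed subunit FPKM in contralateral DRG and 83.4% in ipsilateral DRG, and 37.1% and 49.4% in cord. Inhbc and Inhbe were listed at 0 in both DRG libraries, and Inhbe in both cord libraries, where Inhbc was at 0.031 FPKM ipsilaterally and 0.414 contralaterally, with an interval of the fold under 1 and q = 0.138 in the authors' deposited table.

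Of the 20 BMP and GDF ligand genes, 8 were measured in DRG and 7 in cord. In DRG none was 2-fold at the log2 ratio used here and none was called in the authors' deposited table. The highest fold there was that of Bmp4, a dorsalising and gliogenic ligand, at 1.77 FPKM ipsilaterally and 0.554 contralaterally, 3.20-fold (1.41 to 7.23), with q = 0.0704 in the authors' deposited table. The Bmp4 locus overlaps that of Gm15217, and without a stated strand setting reads of the pair cannot be told apart. Bmp6 was at 4.0 against 2.11 FPKM (1.09 to 3.30), with q = 0.191 in the authors' deposited table. Bmp5 at 5.98 against 3.81 FPKM (0.97 to 2.54) and Bmp7 at 6.36 against 4.29 (0.90 to 2.46) lay on the same side of 1. Bmp3, an antagonist-like member, was at 1.12 against 0.813 FPKM (0.70 to 2.74), and Bmp15 at 0.938 against 1.23. Bmp2 and Gdf10 stayed under 1 FPKM on both sides of DRG.

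Gdf11, which limits neurogenesis during development, was the most abundant ligand gene in both contralateral libraries. It was higher in ipsilateral cord, at 29.9 against 11.9 FPKM, 2.51-fold (1.63 to 3.86), and the authors' deposited table called it (q = 0.00204). In DRG it was at 14.4 against 15.8 FPKM (0.61 to 1.37). Gdf11 occupies chromosome 10 (mm9), bases 128321601 to 128328774. Bmp3 was lower in ipsilateral cord, at 2.71 against 5.15 FPKM (0.29 to 0.95), with q = 0.186 in the authors' deposited table. Gdf1 was at 3.06 against 4.74 FPKM in cord (0.35 to 1.18) and 2.07 against 2.64 in DRG (0.45 to 1.37), and its locus overlaps that of Upf1. Gdf10, a ligand linked to axon sprouting, was at 1.56 against 0.757 FPKM in cord (0.84 to 5.09). Bmp2, Bmp6 and Bmp7 stood between 0.780 and 2.80 FPKM in cord, with intervals of the fold that hold 1. Gdf15, a stress-induced ligand, was at 0.0554 FPKM in ipsilateral DRG and 0.124 in ipsilateral cord and listed at 0 in both contralateral libraries. The other ligand genes of this group, namely Bmp8a, Bmp8b, Bmp10, Gdf2, Gdf3, Gdf5, Gdf6, Gdf7 and Gdf9, stayed under 1 FPKM in all 4 libraries, as did Bmp4, Bmp5 and Bmp15 in cord. In cord Gdf9 had 0.171 FPKM ipsilaterally against 0.837, with an interval of the fold under 1 and q = 0.184 in the authors' deposited table.

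Among the type I receptors, Acvr1c differed most in DRG. It encodes ALK7, a receptor for activin B and related ligands. It was at 2.67 FPKM ipsilaterally and 0.0825 contralaterally, 32.4-fold (14.0 to 74.7), and the authors' deposited table called it (q = 1.83e-13). Its log2 ratio of 1.76 was the highest of all members in DRG and depends on the added FPKM, with 3.92 when 0.1 FPKM was added and 0.88 when 3 FPKM were added. Only the ipsilateral DRG library reached 1 FPKM, so the size of the 32.4-fold difference rests on a low level. In cord, Acvr1c was at 1.44 FPKM ipsilaterally and 1.67 contralaterally (0.51 to 1.48), so contralateral DRG was the low library of the 4. Acvr1c occupies chromosome 2 (mm9), bases 58119863 to 58210169.

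Acvr1, on the same chromosome at bases 58298848 to 58419239 (mm9), encodes ALK2, a type I receptor for BMPs. In DRG it was at 18.2 FPKM ipsilaterally and 8.33 contralaterally, 2.19-fold (1.70 to 2.82), called in the authors' deposited table (q = 2.05e-07). In cord it was at 7.88 against 6.28 FPKM (0.88 to 1.78). Tgfbr1, the type I receptor for TGF-beta, was above 1 in both tissues without being called: 10.1 against 6.44 FPKM in DRG (1.07 to 2.28) and 13.2 against 9.13 in cord (1.0 to 2.09), with q = 0.17 and q = 0.232 in the authors' deposited table. Acvr1b, the activin receptor ALK4, was at 21.4 against 25.3 FPKM in DRG (0.59 to 1.21) and at 33.6 against 50.2 in cord (0.48 to 0.94, q = 0.15 in the authors' deposited table). Bmpr1a stayed between 13.2 and 16.9 FPKM in all 4 libraries. Bmpr1b was at 0.883 and 1.10 FPKM in DRG and 7.44 and 6.66 in cord, and the endothelial receptor gene Acvrl1 at 4.22 against 2.94 in DRG (0.90 to 2.30) and 3.95 against 4.28 in cord (0.54 to 1.57).

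The type II receptor of TGF-beta, Tgfbr2, was called higher in both tissues. It was at 16.9 FPKM ipsilaterally and 9.33 contralaterally in DRG, 1.82-fold (1.43 to 2.32), and at 12 against 5.79 FPKM in cord, 2.07-fold (1.38 to 3.10). The q-values in the authors' deposited table were 0.000118 and 0.015. At a log2 ratio of 0.80 in DRG and 0.93 in cord it stayed under the 2-fold line. Tgfbr2 occupies chromosome 9 (mm9), bases 115996812 to 116084481. The macrophage and microglia marker sums were also higher on the ipsilateral side of both tissues, as were those of the injured sensory neuron markers.

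Of the other type II receptor genes none was called in the authors' deposited table, and all their intervals of the fold hold 1. Bmpr2, for BMPs, was the most abundant member in contralateral DRG at 68.4 FPKM, with 59.3 ipsilaterally (0.61 to 1.23), and stood at 35.5 against 30.3 in cord (0.83 to 1.65). Acvr2a was at 8.15 against 6.83 FPKM in DRG and 6.01 against 7.07 in cord, and its locus overlaps that of Orc4. Acvr2b was lower on the ipsilateral side of both tissues with wide intervals, at 0.423 against 0.815 FPKM in DRG (0.20 to 1.34) and 1.31 against 2.41 in cord (0.22 to 1.34). Tgfbr3, the co-receptor betaglycan, was at 16.2 against 11.1 FPKM in DRG (1.03 to 2.10, q = 0.241 in the authors' deposited table) and 3.67 against 3.25 in cord. Bambi, a decoy receptor that lacks the kinase domain, was at 0.696 against 1.34 FPKM in DRG (0.29 to 0.94, q = 0.218 in the authors' deposited table) and under 1 FPKM in cord.

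**Figure D3:**
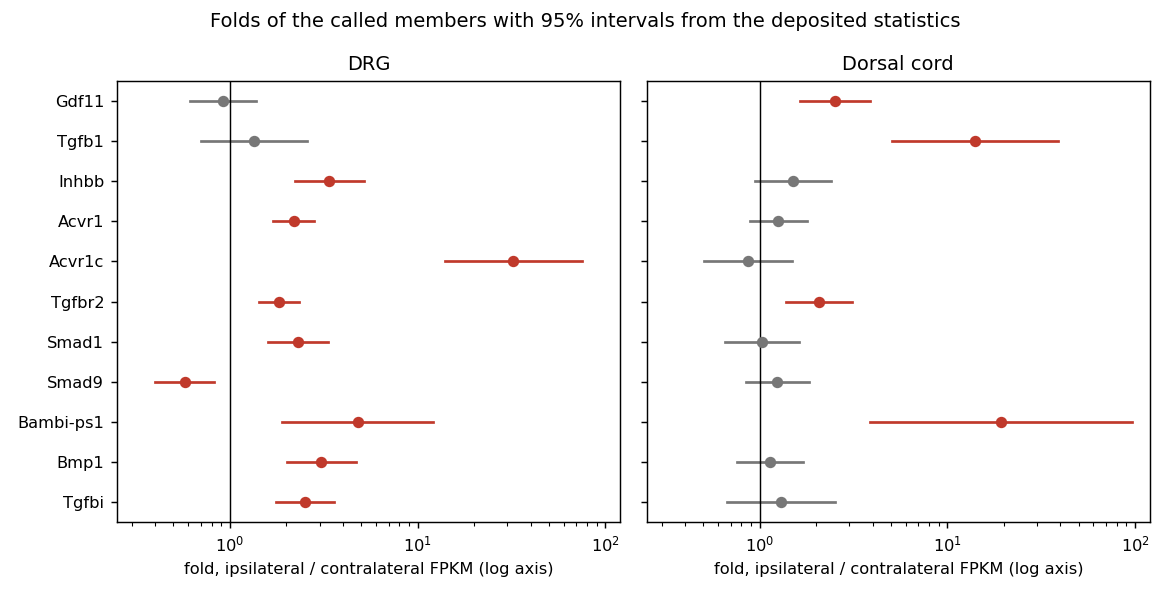
Fold of ipsilateral over contralateral FPKM on a log axis for the 11 members called in at least 1 tissue, in DRG (left) and dorsal cord (right). Points are folds, bars are 95% intervals implied by the authors' deposited table, red marks a call in that tissue, and the vertical line is a fold of 1. Tgfbr2 and Bambi-ps1 are red on both sides, and Smad9 is the red point to the left of 1.

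The BMP-type SMAD genes differed in direction in DRG. Smad1 was at 34.4 FPKM ipsilaterally and 14.9 contralaterally, 2.31-fold (1.60 to 3.33), called in the authors' deposited table (q = 0.000452). Smad9, also known as Smad8, was at 8.99 against 15.7 FPKM, 1.75-fold lower (a fold of 0.40 to 0.82), the member called lower there (q = 0.0402 in the authors' deposited table). Smad5 was at 8.98 against 6.41 FPKM (0.97 to 2.03). In their summed FPKM, Smad1 held 40.3% contralaterally and 65.7% ipsilaterally, while Smad9 held 42.4% and 17.2%. In cord all 3 were close, with Smad1 at 8.35 against 8.13 FPKM (0.65 to 1.62), Smad5 at 10.4 against 12 (0.62 to 1.20) and Smad9 at 9.83 against 7.91 (0.84 to 1.83). In mm9, Smad1 occupies bases 81862297 to 81923367 of chromosome 8 and Smad9 bases 54559503 to 54605179 of chromosome 3.

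None of the other SMAD genes was called in the authors' deposited table. Smad2, at 39.6 against 32.7 FPKM in DRG (0.85 to 1.73) and 17.1 against 13.3 in cord (0.85 to 1.94), was far above Smad3, at 1.93 against 1.66 in DRG and 4.18 against 5.52 in cord. Smad4 was at 23.9 against 18.2 FPKM in DRG (0.92 to 1.89) and 13.3 against 19.1 in cord (0.47 to 1.02). The inhibitory gene Smad7 was at 1.01 against 1.62 FPKM in DRG (0.35 to 1.10) and 12.1 against 11.1 in cord (0.75 to 1.60). Smad6 stayed under 1 FPKM in all 4 libraries.

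Of the 6 genes that match by name only, 3 were called higher in DRG. Tgfbi, a matrix protein gene induced by TGF-beta, was at 54.9 FPKM ipsilaterally and 21.9 contralaterally, 2.51-fold (1.75 to 3.6), with q = 5.22e-05 in the authors' deposited table. Bmp1, a protease that cleaves procollagen and the BMP antagonist chordin, was at 4.34 against 1.41 FPKM, 3.07-fold (2.02 to 4.68), with q = 1.72e-05 in the authors' deposited table. Fibroblast and macrophage marker sums were both higher in the same DRG library, as was the sum of the injured sensory neuron markers. Dcn alone was at 494 against 245 FPKM within a fibroblast sum of 842 against 444. Which cells account for Tgfbi and Bmp1 was not tested. In cord, Tgfbi was at 3.14 against 2.41 FPKM (0.67 to 2.52) and Bmp1 at 3.78 against 3.33 (0.76 to 1.71).

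The pseudogene Bambi-ps1 was called higher in both tissues, at 2.89 against 0.604 FPKM in DRG (fold of 1.90 to 12.1) and 2.32 against 0.120 in cord (3.86 to 96.7). The q-values in the authors' deposited table were 0.02 and 0.0115. Its GENCODE transcript is 88.4% identical to that of Bambi over 606 aligned columns, and no label or header says how reads shared by the pair were assigned, so its values are uncertain. The kinase gene Bmp2k was at 4.91 against 3.20 FPKM in DRG (1.02 to 2.31, q = 0.259 in the authors' deposited table) and 8.46 against 7.46 in cord, with a locus that overlaps Paqr3. Tgfb1i1, which encodes a focal adhesion adaptor, and Tgfbrap1, a receptor-associated protein gene, had intervals of the fold that hold 1 in both tissues.

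Ratios in the 2 tissues can be set side by side, because each was taken within its own table. Of the 35 members measured in both, 15 were above a log2 ratio of 0 in both, 4 below 0 in both, and 16 had opposite signs. Of all 12229 features measured in both, 29.4% were above 0 in both, 22.1% below 0 in both and 48.5% had opposite signs. The difference of the log2 folds, with an interval from the standard errors of the authors' deposited table, excluded 0 for 13 of the 42 members tested in both and for 16.8% of all 12963 features with such an interval. Relative to cord, DRG had the larger fold for Acvr1c (difference 5.23 on the log2 scale, 3.79 to 6.66), Bmp4, Bmp1, Bmp3, Inhbb (1.18, 0.27 to 2.08), Smad1 (1.17, 0.32 to 2.01), Tgfb2 (1.17, 0.31 to 2.02), Smad4 and Acvr1 (0.80, 0.18 to 1.43). Cord had the larger fold for Tgfb1 (-3.39, -5.13 to -1.64), Gdf11 (-1.46, -2.31 to -0.60), Smad9 (-1.12, -1.88 to -0.36) and Tgfb3 (-1.04, -1.99 to -0.10). The intervals of the 42 members were not adjusted for their number. For Tgfbr2 the difference was -0.18 with an interval of -0.87 to 0.50.

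**Figure D4:**
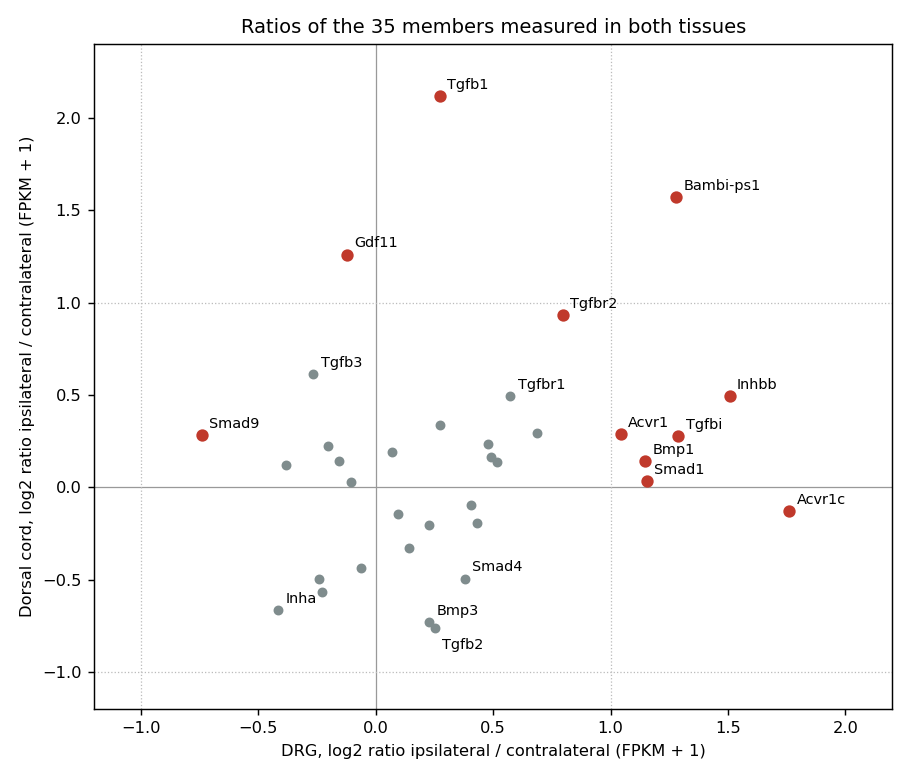
Log2 ratio of ipsilateral over contralateral FPKM, each with 1 FPKM added, in DRG (horizontal) and in dorsal cord (vertical) for the 35 members measured in both tissues. Each point is a gene, red marks members called in the authors' deposited table in at least 1 tissue, and dotted lines mark 2-fold. Bambi-ps1 is the member beyond 2-fold in both, Acvr1c, Inhbb, Tgfbi, Smad1, Bmp1 and Acvr1 lie beyond 2-fold in DRG and within 2-fold in cord, and Tgfb1 and Gdf11 lie at the top.

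Levels also differed between the contralateral libraries of the tissues, though the tables were normalised separately and such folds are approximate. At least 3-fold higher levels in contralateral DRG were found for 5 of the 35 members and in contralateral cord for 6, and 24 were within 3-fold. The same counts over all features are not given here, so these counts do not set the members apart from other genes. Tgfbi was at 21.9 FPKM in DRG and 2.41 in cord (9.08-fold), Tgfb1i1 at 11.2 and 1.74 (6.42-fold), Tgfb1 at 1.53 and 0.343 (4.47-fold) and Tgfbr3 at 11.1 and 3.25 (3.40-fold), and the fifth was Bambi-ps1. Contralateral cord was higher for Acvr1c, at 1.67 against 0.0825 FPKM (20.2-fold), Smad7, at 11.1 against 1.62 (6.82-fold), Bmp3, at 5.15 against 0.813 (6.33-fold), and Bmpr1b, at 6.66 against 1.10 (6.05-fold). Smad3 (3.34-fold) and Tgfb2 (3.13-fold) completed the 6. No error can be given for these folds.

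Extracellular antagonists and modulators were examined as a list of 34 further pathway genes, of which 18 were measured in each tissue. In DRG 3 were at least 2-fold higher and 0 lower (median log2 ratio 0.17), against 3.04% and 0.784% of all measured features (median 0.05). Fst, which encodes follistatin, the binding protein that neutralises activins, was at 27.0 FPKM ipsilaterally and 1.57 contralaterally, 17.1-fold, and was called in the authors' deposited table (its q is listed as 0). The matrix proteoglycan gene Dcn, which binds TGF-beta and is also a fibroblast marker, was at 494 against 245 FPKM. The BMP antagonist gene Nog was at 0.880 against 2.04 FPKM and was not called (q = 0.177 in the authors' deposited table). In cord 2 of 18 were at least 2-fold higher and 0 lower (median -0.13), against 4.46% and 1.64% of all measured features (median 0.02). The 2 were Nbl1, another BMP antagonist gene, at 24.3 against 10.02 FPKM and Rgma, which encodes a BMP co-receptor and axon repellent, at 23.9 against 9.99. Nog was at 0.509 against 1.70 FPKM there and Dand5 at 9.53 against 5.40, neither called (q = 0.181 and q = 0.319 in the authors' deposited table). In both tissues Nog reached 1 FPKM through the contralateral library alone, as did Grem1 and Lefty1 in cord.

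Genes that store and release latent TGF-beta formed a list of 23. In DRG 19 were measured and 15 of these lay above 0, of which 3 passed the 2-fold line. Their median log2 ratio was 0.50. The authors' deposited table called 6 of 22 tested higher and 0 lower. The shares over all DRG features were 56.1% above 0, 3.04% past the 2-fold line and 4.64% called higher. Plau, the urokinase gene, was at 9.82 against 3.71 FPKM, Ltbp1, a latent TGF-beta binding protein gene, at 5.55 against 2.05, the gelatinase gene Mmp2 at 13.3 against 5.70 and Thbs2, of the thrombospondin family, at 4.6 against 2.11. In cord 15 of 18 measured genes were above 0, against 51.6% of all measured features, and 0 were 2-fold (median 0.23), with Plau at 1.48 against 0.247 FPKM, Itgb5 at 22.6 against 11.9, Itgb3 at 2.82 against 1.13 and Mmp9 at 3.04 against 1.51. The authors' deposited table called 3 of 19 tested higher there, against 4.52% of all tested features, and Mmp9 was not called (q = 0.223). In cord Plau and Lrrc33 reached 1 FPKM through the ipsilateral library alone, as did Emilin1 and Lrrc32 in DRG. These genes are among those above 0, so the counts and medians of this list are descriptions.

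Target and feedback genes were a list of 34, many of which respond to other signals too. Its collagen genes Col1a1, Col1a2 and Col3a1 are also among the fibroblast markers. In DRG 24 of 28 measured genes were above 0, 5 were at least 2-fold higher and 0 lower, with a median of 0.48, and the authors' deposited table called 8 of 29 tested higher. Over all features of DRG, 56.1% of those measured were above 0, 3.04% were 2-fold higher and 4.64% of those tested were called higher. The cell cycle inhibitor gene Cdkn1a was at 146 against 31.4 FPKM, the SMAD co-repressor gene Tgif1 at 8.29 against 1.5 and the smooth muscle actin gene Acta2 at 10.5 against 4.55. In cord 0 of 24 were at least 2-fold higher and 2 lower (median 0.16), against 4.46% and 1.64% of all measured features. The 2 lower genes were Id2, a BMP-responsive inhibitor of differentiation, at 36.5 against 90.6 FPKM, and Pmepa1, a feedback inhibitor gene of TGF-beta signalling, at 12 against 25, and the authors' deposited table called both. Fn1 at 7.11 against 3.71 FPKM and Col1a1 at 1.58 against 0.433 were called higher in the same table. It called 2 of 29 tested genes of this list higher and 2 lower, against 4.52% and 1.55% of all tested features. Some genes of the list were measured through the ipsilateral library alone, among them Snai2 in DRG and Col1a1 and Msx1 in cord. The counts and medians of this list are therefore descriptions.

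Nuclear co-regulators and turnover factors, a list of 32 genes, were close between sides. In DRG 1 of 31 measured genes was at least 2-fold higher (median 0.11), against 3.04% of all measured features (median 0.05). Of the 31, 25 lay above 0, against 56.1% of all measured features. The 2-fold gene was Cited2, a CBP/p300-binding co-activator gene, at 8.40 against 2.38 FPKM, while Runx3, a transcription factor gene of proprioceptive neurons, was at 2.18 against 4.06. Nedd4l was at 38.5 against 53.6 FPKM and Runx2 at 1.79 against 1.0. In cord 0 of 28 were 2-fold in either direction (median -0.01), against 4.46% higher and 1.64% lower of all measured features. There 13 of the 28 lay above 0, against 51.6% of all measured features. Cited2 was at 8.95 against 5.40 FPKM, Tab1 at 7.65 against 4.62, Crebbp at 17.0 against 12.1 and Eid2 at 50.4 against 74.9. Of the genes named from this list, the authors' deposited table called Cited2 in DRG and none in cord.

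**Figure D5:**
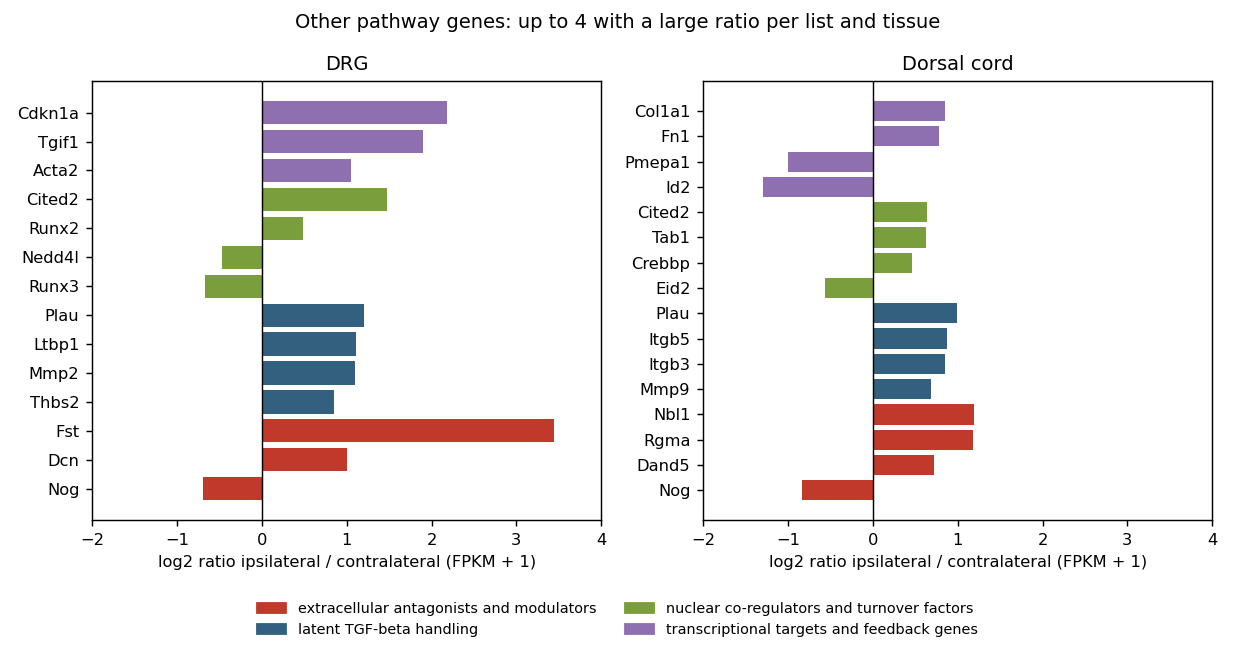
Log2 ratio of ipsilateral over contralateral FPKM, each with 1 FPKM added, for up to 4 genes with a large absolute ratio from each of 4 pathway lists, in DRG (left) and dorsal cord (right). Bars start at 0, each bar compares 1 library with 1 library, and color gives the list. The follistatin gene Fst at 3.44 is the longest bar in DRG, and Id2 at -1.29 is the longest bar in cord.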

How the data were processed

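The 4 libraries were made with an Epicentre ScriptSeq kit from RNA extracted by a QIAGEN RNeasy kit, per the labels' protocols. The submitters' processing notes name TopHat (1.4.0), Cuffdiff (1.3.0) and build mm9; in the sources used here, annotation and strand setting are not given. Each library's FPKM, the log2 fold change, its statistic, the p-values and the q-values are the authors' own, per the file headers. A normal, two-sided test of the statistic returns the deposited p-values within 0.001 for 100% of tested features, so the log2 fold change divided by the statistic gives a standard error, from which 95% intervals were computed.

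Log2 ratios used a pseudocount of 1 FPKM, and features with at least 1 FPKM on either side were taken as measured. With 1 library per group, no test was computed. The read number is not given, but features whose standard error implies 1 read in each library put the ipsilateral worth of a read, relative to the contralateral, at 0.637 in DRG and 1.35 in cord. The summed FPKM was 431795 contralaterally and 442298 ipsilaterally in DRG, and 425636 and 442196 in cord. Symbols were matched to RefSeq promoters for 38 of 55 members. The members, lists and alternatives were chosen with earlier results of these data known. Named genes were each measured member 2-fold or called in either tissue, a fixed set of core members, and from each pathway list up to 4 genes per tissue whose log2 ratio was largest in size (some of these are not reported here), with other members named to account for all. Pandas 2.3.3 and NumPy 2.4.6 were used.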

Additional observations from a re-analysis of the deposited data

Results flagged for a closer look

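Members were singled out where the ratio pointed in opposite directions in the 2 tissues and the authors' deposited table called it in at least 1. Each group holds 1 library, so the difference between tissues was not tested over animals. Acvr1c was 32.4-fold higher in ipsilateral DRG and 0.865-fold in ipsilateral cord, a difference of 5.23 on the log2 scale. With Acvr1c at 0.0825 FPKM in contralateral DRG, the size of that fold and that difference rests on a low level. Gdf11 was at a fold of 0.914 in DRG and 2.51 in cord, a difference of -1.46. Smad9 was at a fold of 0.573 in DRG and 1.24 in cord, a difference of -1.12. For Acvr1c in cord, Gdf11 in DRG and Smad9 in cord the interval of the fold holds 1.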

How the results depend on the processing

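No paired analysis was possible because each group holds 1 library. In DRG, the 7 members at least 2-fold higher became 3 with a pseudocount of 3 FPKM, 4 with a filter at 5 FPKM and 4 without the 6 members matched by name only, a choice made after seeing the data. The DRG count was 8 with a pseudocount of 0.1 FPKM and 6 under median rescaling, where the log2 ratio of Acvr1 was 0.9955. A 1.5-fold threshold gave 1 member lower in DRG in place of 0. In cord, the 3 members higher became 1 with a filter at 5 FPKM and 5 at 1.5-fold, where 3 were lower in place of 0. The cord count was 4 with a pseudocount of 0.1 FPKM and 2 with 3 FPKM. The median log2 ratio in DRG was 0.40 with a pseudocount of 0.1 FPKM, 0.069 without a filter and 0.38 with a filter at 5 FPKM, and in cord 0.012 without a filter. A filter changes the genes counted and a pseudocount shrinks low ratios by construction. Of 84 single-gene ratios, 83 have a standard error. All 83 moved by less than it under median and under upper-quartile rescaling, while 6 moved further with a pseudocount of 0.1 FPKM and 4 with 3 FPKM. None of the 84 changed sign under either rescaling, where median rescaling shifted the log2 ratios by -0.048 in DRG and -0.018 in cord. A pseudocount cannot change a sign, so those settings say nothing on direction. Depth limits the low members: from the authors' deposited table, the median implied log2 standard error was 0.44 in DRG and 0.57 in cord for features of 1 to 3 FPKM, and 0.26 and 0.25 from 30 FPKM.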
